A study of Mus musculus with 12 samples.

Results

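The tricarboxylic acid (TCA) cycle and the handling of α-ketoglutarate were followed through 33 genes, taken by symbol from the 17955 genes of the deposited table. Of these, 7 bring pyruvate into the cycle, 7 act from citrate to α-ketoglutarate, 7 from α-ketoglutarate to succinate (with D2hgdh, which oxidises D-2-hydroxyglutarate back to α-ketoglutarate), 7 from succinate to oxaloacetate, and 5 use or carry intermediates that leave the cycle. All 33 had enough counts to be among the 12903 genes tested, so no member was lost to the filter on low counts. In the edgeR quasi-likelihood test, the main one here, no member passed an adjusted p of 0.05 in any of the 7 comparisons made. Of the alternatives run, limma voom with quality weights passed 3 members for genotype and 4 for DMαKG, each averaged over the other factor, and the other alternatives passed 0. The text below gives the levels, the bounds that the replicates place on a change, and the members with the smallest p.

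The cells were regulatory T cells (Tregs), sorted by flow cytometry as CD4+CD25+YFP+ from the spleen and lymph node of C57BL/6 mice aged 7 weeks. Mice were Foxp3YFP-creTKT+/+ (here WT) or Foxp3YFP-creTKTfl/fl (here cKO), so all groups carried the Cre and yellow fluorescent protein driven by Foxp3, and in cKO the floxed gene is the transketolase gene Tkt. Each genotype had drinking water with vehicle or with DMαKG, a cell-permeable dimethyl ester of α-ketoglutarate, which was given to the mothers from pregnancy and on to the adult offspring, and so to the whole animal rather than to Tregs alone. The 4 groups (WT vehicle, cKO vehicle, WT DMαKG and cKO DMαKG) had 3 libraries each, 12 in all, and p-values measure the spread between these libraries. The titles number the libraries and do not say how many mice each one holds.

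In the TCA cycle, acetyl-CoA made from pyruvate is joined to oxaloacetate to form citrate, which is oxidised in steps back to oxaloacetate while electrons pass to the respiratory chain. α-Ketoglutarate lies in the middle of the cycle: isocitrate dehydrogenases make it, the α-ketoglutarate dehydrogenase complex consumes it, and outside the cycle it is the co-substrate of the dioxygenases that demethylate histones and DNA. In Tregs mitochondrial metabolism is known to support suppressive function.

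Tkt itself was read first, as a check of the labels. With vehicle it stood at 133, 102 and 111 CPM in the WT libraries (CPM, counts scaled to library sizes adjusted by TMM) and at 26.2, 37.2 and 41.8 CPM in the cKO libraries. With DMαKG the WT libraries held 110.1, 137 and 194 CPM and the cKO libraries 37.8, 34.6 and 31.5 CPM. Every cKO library was below every WT library, and the log2 fold change averaged over both treatments was -1.90 (SE 0.15, edgeR adjusted p = 0.000188).

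The libraries were of similar depth, 1.57e+07 to 1.89e+07 summed counts, but cKO DMαKG replicate 3 stood apart, at 47.0 on the first principal component against at most 21.4 in the others, and WT vehicle 4, cKO vehicle 4 and WT DMαKG 3 lay together at the other end (-32.9 to -29.7). Treg markers were present in all libraries (Foxp3 at 279.6 to 545 CPM, Cd4 at 644 to 864 CPM), but their sum was uneven. Foxp3, Il2ra, Ctla4, Ikzf2, Cd4 and Cd3e together stood at 5365, 5711 and 6094 CPM in cKO DMαKG. In the other libraries this sum ran from 3516 to 5169 CPM. The part of this difference in the later values was not tested. Markers of other cells were low but uneven: the summed level ran from 37.6 to 166 CPM for 8 macrophage and monocyte genes, 35.4 to 95.8 for 7 dendritic cell genes, 11.6 to 36.4 for 5 B cell genes, 18.7 to 27.3 for 4 CD8 T and NK cell genes and 1.3 to 19.4 for 5 erythroid genes. The natural killer cell gene Ncr1 was at 0 in 9 of the 12 libraries and the monocyte gene Cd14 at 0 in cKO vehicle 2. Y-linked genes summed to 16.4 CPM in WT vehicle 3, 15.2 in cKO DMαKG 1, 22.6 in cKO DMαKG 3 and 60.9 in WT DMαKG 2, and to at least 225 CPM in the other libraries. The low libraries are unevenly spread over the groups, and the labels give no sex.

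Promoters were read for the genes on which the later values turn: Idh1 and Idh2, whose products make α-ketoglutarate in the cytosol and in the mitochondrion, and Mpc1, a subunit of the mitochondrial pyruvate carrier. Of the 33 members, 30 matched the RefSeq promoter table (GRCm38.p6), and the 250 bases before each start were searched on both strands, with overlapping matches of different motifs allowed. The windows are chr1:65186480-65186729 for Idh1 (minus strand), chr7:80115351-80115600 for Idh2 (minus strand, inside the outermost bounds of the gene) and chr17:8283537-8283786 for Mpc1 (plus strand). They are written 5′ to 3′ toward the start, with motif matches in capitals: the letters CCAAT of the CCAAT-box factors, the GC box GGGCGG and, in Mpc1, the ETS motif CCGGAAG, each on either strand.
Idh1: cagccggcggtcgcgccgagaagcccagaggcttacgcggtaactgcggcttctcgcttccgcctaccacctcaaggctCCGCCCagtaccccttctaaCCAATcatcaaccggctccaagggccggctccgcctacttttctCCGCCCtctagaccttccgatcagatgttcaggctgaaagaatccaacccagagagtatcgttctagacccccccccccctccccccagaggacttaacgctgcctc
Idh2: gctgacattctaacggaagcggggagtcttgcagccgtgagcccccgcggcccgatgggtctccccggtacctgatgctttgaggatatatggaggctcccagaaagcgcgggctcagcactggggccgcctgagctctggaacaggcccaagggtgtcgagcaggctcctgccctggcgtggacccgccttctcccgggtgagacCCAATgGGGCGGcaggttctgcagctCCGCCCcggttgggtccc
Mpc1: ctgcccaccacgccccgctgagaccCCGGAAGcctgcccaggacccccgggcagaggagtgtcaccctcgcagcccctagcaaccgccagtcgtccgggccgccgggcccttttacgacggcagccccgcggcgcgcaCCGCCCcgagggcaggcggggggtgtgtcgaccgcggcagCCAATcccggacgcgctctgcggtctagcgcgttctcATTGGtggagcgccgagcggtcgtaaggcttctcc
All of these 3 promoters hold both a CCAAT and a GC box, which lie at -44 and -38 in Idh2 and at -72 and -112 in Mpc1, where a further CCAAT lies at -35. Over the 30 member promoters, CCAAT was found in 56.7% and GGGCGG in 70%, against 36.2% and 50.3% of 14206 promoters of genes in the table. The median GC content was 61.6% in the members and 58.0% in all. For the cyclic AMP element TGACGTCA the share was 6.7% (2 of 30) against 2.32%. It was 6.7% (2 of 30) against 7.43% for the E-box CACGTG and 10% (3 of 30) against 11% for the ETS motif CCGGAAG. Counts this small are too few to compare shares, and the 14206 promoters include genes too low to test. The TATA box, spelled TATAAA, was in 0 member promoters and 8.6% of all, and the core motif of the oestrogen-related receptors, AAGGTCA, in 0 and 3.16%. These are matches of letters in a short window and show no binding.

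The members spanned more than 2 orders of magnitude in transcript level, compared here on the deposited TPM scale, which corrects for length. Mdh2, the mitochondrial malate dehydrogenase, had the highest mean, 269 TPM over the 12 libraries (range 230.7 to 293). In cKO DMαKG 3, however, it stood below Mdh1, its cytosolic counterpart (TPM ratio of Mdh2 to Mdh1 0.967). Below Mdh2 by mean came Sdha (196, range 152 to 215), Pdha1 (191, range 175 to 222), Mdh1 (187, range 163 to 239) and Idh3b (176, range 152 to 205). These overlapped one another and cannot be ranked beyond their spread. Pcx, the pyruvate carboxylase that refills oxaloacetate, was lowest at 1.67 TPM (range 1.29 to 2.27) and did not overlap the next, the dicarboxylate carrier gene Slc25a10, at 3.19 TPM (range 2.64 to 3.78). Idh1 followed at 5.31 TPM (range 3.00 to 7.33). The 33 members together made up 2684 to 3120 TPM per library. With FPKM in place of TPM 2 members changed rank.

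Within the multi-subunit enzymes the transcripts of the partners were matched to different degrees. The α-ketoglutarate dehydrogenase complex was even on average, with mean levels of 96.6 TPM for Ogdh (the decarboxylase), 93.3 TPM for Dlst (the succinyltransferase) and 90.3 TPM for Dld (the dihydrolipoyl dehydrogenase). In single libraries the TPM ratio of Ogdh to Dlst ran from 0.695 (cKO DMαKG 3) to 1.15. The pyruvate dehydrogenase complex was not even: Pdha1 and Pdhb, its decarboxylase subunits, stood at 191 and 122 TPM, while Dlat, its acetyltransferase, stood at 20.4 TPM and Pdhx, which tethers Dld, at 13.7 TPM. In the NAD-linked isocitrate dehydrogenase Idh3b (176 TPM) and Idh3g (160 TPM) stood above the catalytic subunit Idh3a (54.8 TPM). By mean, succinate dehydrogenase ran from Sdha (196 TPM) and Sdhb (149 TPM) to the membrane anchors Sdhd (92.1 TPM) and Sdhc (84.7 TPM). The TPM ratio of Sdhb to Sdha was up to 1.29 in single libraries, with Sdhb above Sdha in cKO DMαKG 3. The GTP- and ATP-forming succinyl-CoA ligase subunits, Suclg2 and Sucla2, were close to even, at a TPM ratio between 0.792 and 1.29 in single libraries.

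**Figure D1:**
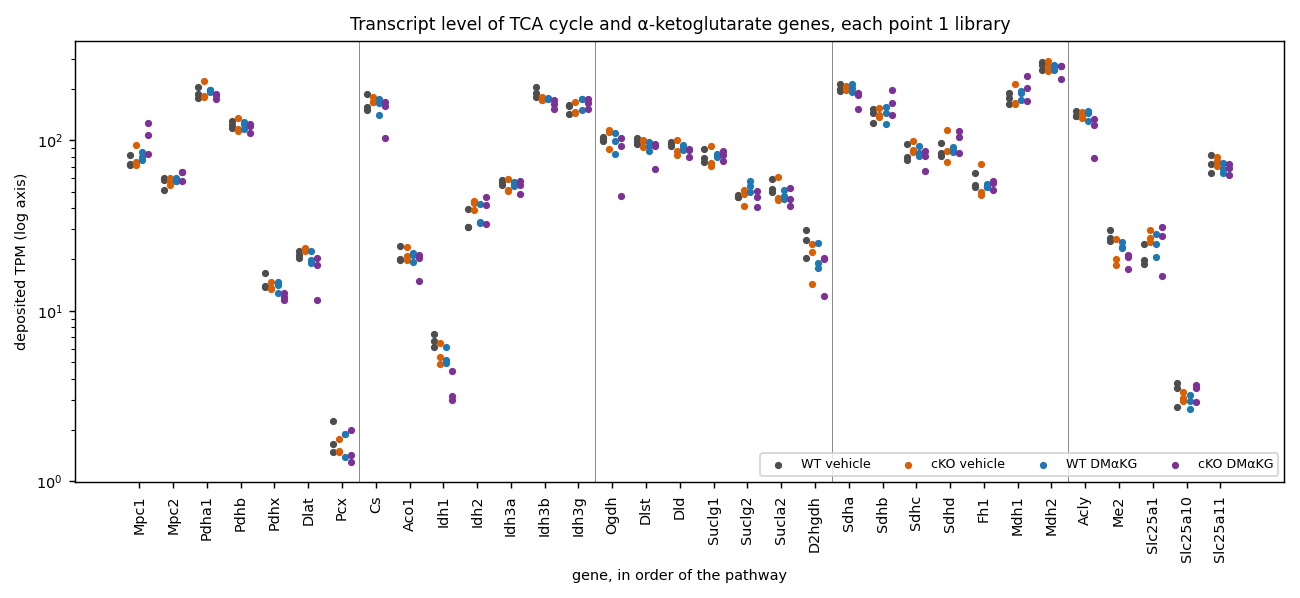
Deposited TPM (log axis) of each of the 33 genes in pathway order, with 1 point per library coloured by group. Mdh2 has the highest mean, Pcx, Slc25a10 and Idh1 lie at the bottom, and the 4 groups overlap for most genes.

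The first comparison asked what loss of Tkt changed when mice drank vehicle. Of the 33 members 0 passed the adjusted p of 0.05 (edgeR quasi-likelihood test, adjusted over all 12903 genes), where 8 of all genes did (0.062%). At an unadjusted p below 0.05 there were 2 members, both higher in cKO, against 7.29% of all genes; DESeq2 and limma voom passed 0 members as well. By sign 23 members were higher (51.6% of all genes) and 10 lower, with a median log2 fold change of 0.06 against 0.01 over all genes. All 7 genes from succinate to oxaloacetate lay above 0 (log2 fold changes 0.06 to 0.19), and none passed. That sign count rested on cKO vehicle replicate 4: without it 13 of 33 members and 3 of these 7 were above 0, and the member median was -0.03. Without the 3 libraries at the low end of the first principal component 16 members were above 0. Fewer cells of a type and less RNA per cell cannot be told apart in such bulk samples.

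Idh2 and the citrate carrier gene Slc25a1 were those 2 members. Idh2, the mitochondrial NADP-linked isocitrate dehydrogenase, stood at 23.3, 22.2 and 28.3 CPM in WT vehicle and at 31.1, 29.9 and 34.2 CPM in cKO vehicle, so the groups did not overlap (log2 fold change 0.37, 95% interval 0.08 to 0.66, edgeR adjusted p = 0.52). Slc25a1, which exports citrate from mitochondria, stood at 14.5, 13.0 and 16.9 CPM in WT and at 20.9, 20 and 19.4 CPM in cKO, again without overlap (log2 fold change 0.44, 95% interval 0.05 to 0.83, edgeR adjusted p = 0.606). Counting Dlat, 3 members did not overlap with cKO higher (8.29% of all genes do) and 0 with cKO lower (7.01%).

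The second comparison set cKO against WT when both drank DMαKG. Again 0 of 33 members passed, against 24 of all genes (0.186%), and 2 were below an unadjusted p of 0.05 (10.4% of all genes). Idh1, the cytosolic NADP-linked enzyme, and Mpc1 had the smallest p, and they pointed in opposite directions. Idh1 stood at 5.51, 5.10 and 5.82 CPM in WT DMαKG and at 4.73, 3.17 and 3.69 CPM in cKO DMαKG, where every library was below every WT library (log2 fold change -0.50, 95% interval -0.95 to -0.06, edgeR adjusted p = 0.413). Mpc1 stood at 40.7, 42.2 and 35.7 CPM in WT and at 52.1, 41.0 and 75.3 CPM in cKO, where replicate 3 was far above the other libraries (log2 fold change 0.50, 95% interval 0.09 to 0.92, edgeR adjusted p = 0.371). Without that library the Mpc1 value was 0.24 and the Idh1 value -0.47. Signs were split, 18 higher (50% of all genes) and 15 lower, and 16 were higher without WT DMαKG replicate 3. The groups did not overlap for 1 member with cKO higher, Slc25a10 (7.92% of all genes), and for 4 with cKO lower, Idh1, Sdha, Acly and Me2 (7.04%).

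The next comparisons asked what DMαKG changed within each genotype. In WT 0 of 33 members passed and 0 of all genes did (0%) in edgeR, against 2 of all genes in DESeq2 and 8 in limma voom, neither set with a member in it. Below an unadjusted p of 0.05 lay 1 member, Suclg2, and 2.73% of all genes. Suclg2, the GTP-forming ligase subunit, stood at 50.5, 49.1 and 48.0 CPM with vehicle and at 62.8, 65.5 and 51.7 CPM with DMαKG, without overlap (log2 fold change 0.29, 95% interval 0.00 to 0.57, edgeR adjusted p = 0.999). By sign 23 members lay above 0 and 10 below (49.8% of all genes above). The ATP-forming partner of Suclg2, Sucla2, stood at 46.0, 45.2 and 51.6 CPM with vehicle and at 46.8, 43.0 and 45.2 CPM with DMαKG (log2 fold change -0.08, 95% interval -0.42 to 0.26). Slc25a1 had the next smallest p, at 16.2, 21.4 and 17.1 CPM with DMαKG, overlapping the vehicle libraries (log2 fold change 0.30, SE 0.18, and 0.17 without WT DMαKG replicate 2). Sdha was the only other member whose WT groups did not overlap, so there were 2 with DMαKG higher (4.59% of all genes) and 0 with it lower (3.86%).

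In cKO 0 of 33 members and 0 of all genes (0%) passed in edgeR, although 17.3% of all genes were below an unadjusted p of 0.05. DESeq2 passed 389 of all genes and limma voom 450, with 0 members in either. Signs were split here too, 19 higher (50.4% of all genes) and 14 lower, and 13 were higher without cKO vehicle replicate 2. By that unadjusted measure 3 members stood out, Mpc1 higher and Idh1 and Dlat lower. Mpc1 had a log2 fold change of 0.56 (95% interval 0.14 to 0.97, edgeR adjusted p = 0.201), from 33.3, 36.5 and 44.6 CPM with vehicle to the DMαKG values given above. Idh1 stood at 4.66, 5.44 and 6.70 CPM with vehicle and at 4.73, 3.17 and 3.69 CPM (log2 fold change -0.54, 95% interval -0.98 to -0.09, edgeR adjusted p = 0.224), and 1 library, DMαKG replicate 1, lay within the vehicle range. Dlat, the acetyltransferase of pyruvate dehydrogenase, stood at 40.0, 41.3 and 42.3 CPM with vehicle and at 35.7, 36.8 and 25.6 CPM with DMαKG (log2 fold change -0.33, 95% interval -0.61 to -0.05, edgeR adjusted p = 0.226). Here the groups did not overlap, as also for Acly among the lower members (2 members, 12.2% of all genes) and Slc25a10 among the higher (1 member, 8.91%). Without cKO DMαKG replicate 3 the log2 fold changes were 0.29 for Mpc1, -0.50 for Idh1 and -0.18 for Dlat.

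**Figure D2:**
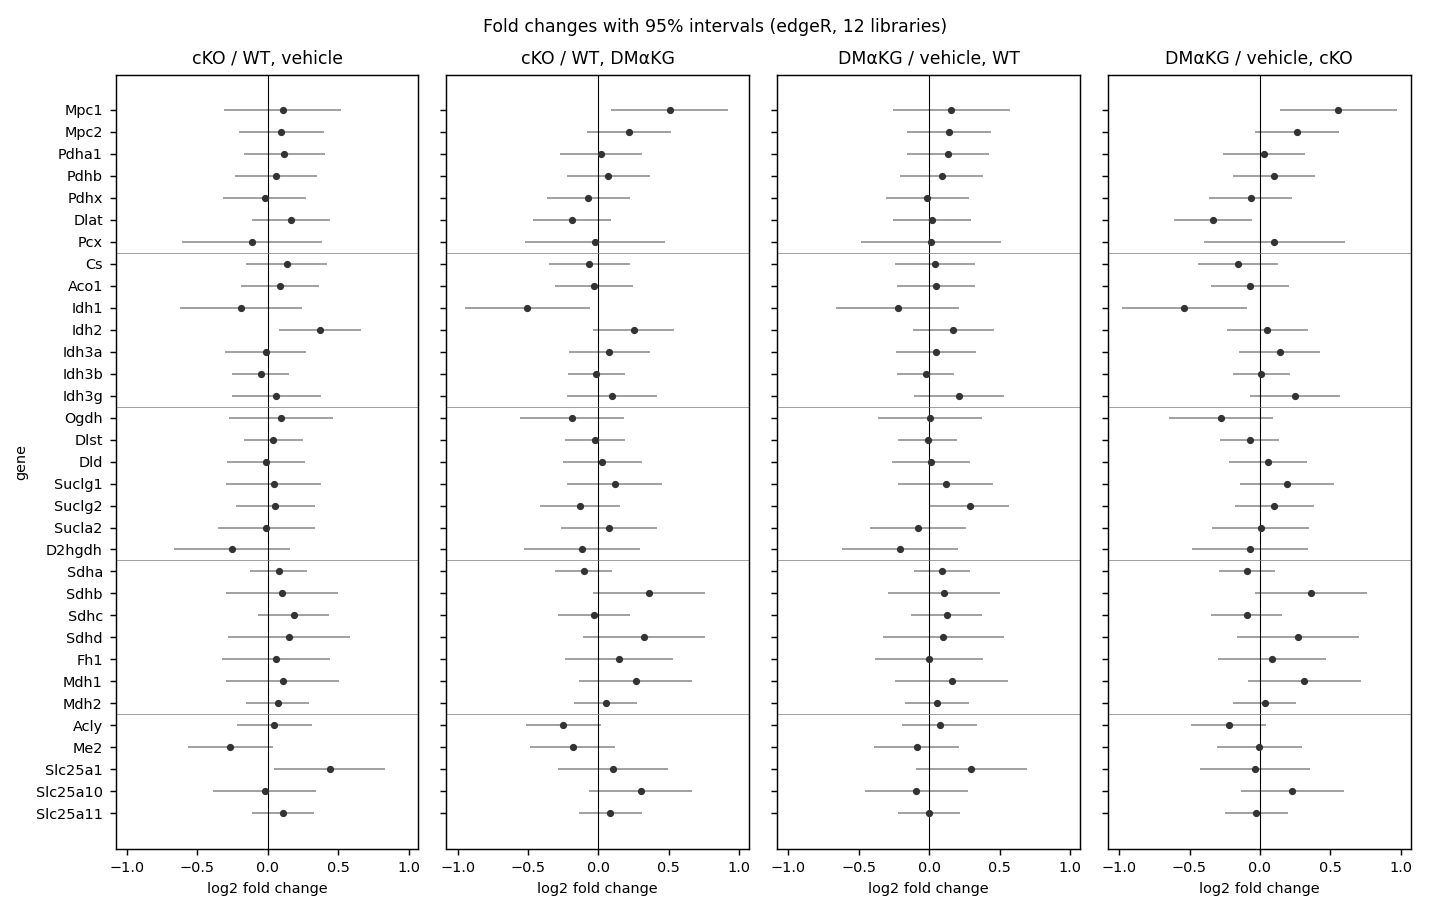
Log2 fold change of each gene (points) with its 95% interval (lines) from edgeR, in the 4 pairwise comparisons, genes in pathway order. Most intervals include 0, and all lie between -1 and 1.

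**Figure D3:**
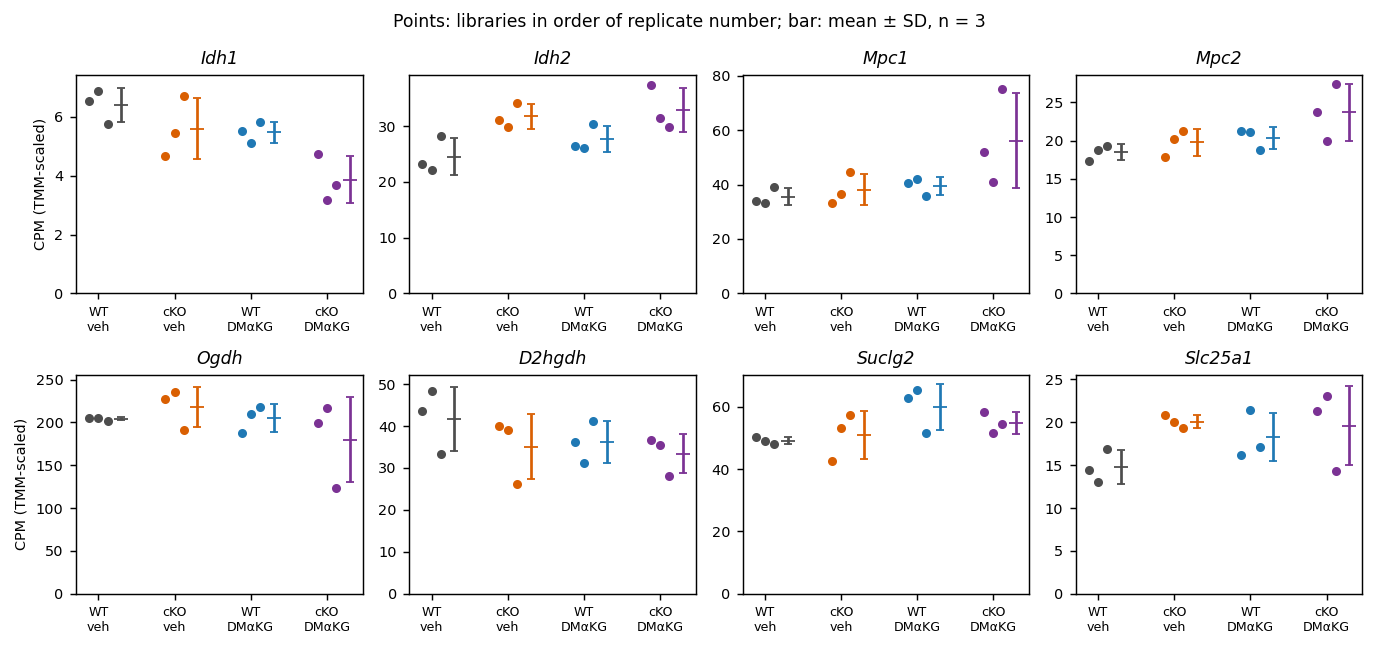
CPM of 8 members in each library (points, ordered by replicate number) with the group mean and SD (bars, n = 3), axes starting at 0. Idh1 is lowest and Idh2 highest in the cKO DMαKG group on average, and the spread of Mpc1 and Ogdh in that group comes from replicate 3.

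The interaction, which asks whether DMαKG acted differently in the genotypes, gave 0 of 33 members and 0 of all genes (0%) in edgeR, and 0 members at an unadjusted p below 0.05 (3.64% of all genes). DESeq2 and limma voom each passed 1 gene, not a member. Above 0 lay 17 members (48.7% of all genes), a count that was 10 without cKO DMαKG replicate 3, 11 without cKO vehicle replicate 2 and 11 with a Y-linked covariate. The smallest p among members belonged to Dlat (log2 difference -0.35, SE 0.18) and Acly, the cytosolic ATP-citrate lyase (-0.30, SE 0.17), both with an edgeR adjusted p of 0.955. Acly stood at 270.2, 256 and 277 CPM in WT vehicle, 274, 277 and 277 in cKO vehicle, 274, 295 and 277 in WT DMαKG and 256, 265 and 189.6 in cKO DMαKG. The low value was 1 library, cKO DMαKG replicate 3, and without it the difference was -0.15 for Acly and -0.20 for Dlat.

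Averaged over treatment, cKO against WT gave 0 of 33 members where 130 of all genes passed (1.01%), and 4 members were below an unadjusted p of 0.05 (12.8% of all genes). By sign 22 were higher in cKO (48.9% of all genes), but 14 without the 3 libraries at the low end of the first principal component and 16 under limma voom. Idh2 was nearest, with group means of 24.6 ± 3.26, 31.8 ± 2.22, 27.7 ± 2.38 and 33 ± 3.90 CPM (SD, n = 3) in WT vehicle, cKO vehicle, WT DMαKG and cKO DMαKG, and a log2 fold change of 0.31 (SE 0.09, edgeR adjusted p = 0.16). Its log2 fold change lay between 0.26 and 0.39 under all 21 alternative settings, with adjusted p-values from 0.00915 to 0.347. The one that passed was limma voom with sample quality weights, and that setting also passed Me2, the mitochondrial malic enzyme (-0.31, adjusted p = 0.0206), and Slc25a1 (0.36, adjusted p = 0.0408). Idh1 had the next smallest p, at 6.40 ± 0.572, 5.60 ± 1.03, 5.47 ± 0.358 and 3.86 ± 0.792 CPM in the same order of groups (log2 fold change -0.35, SE 0.14, edgeR adjusted p = 0.326).

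Averaged over genotype, DMαKG against vehicle gave 0 of 33 members and 1 of all genes (0.00775%), with 3 members below an unadjusted p of 0.05 (15.9% of all genes). By sign 20 were higher with DMαKG (50.4% of all genes). The members with the smallest p were Idh1 (log2 fold change -0.38, SE 0.14, edgeR adjusted p = 0.243) and Mpc1 (0.36, SE 0.14, edgeR adjusted p = 0.245). Without cKO DMαKG replicate 3 the Mpc1 value was 0.22. With limma voom and quality weights 4 members passed, all higher with DMαKG: Mpc1 (adjusted p = 0.023), Mdh1 (0.0431), Suclg2 (0.0452) and Idh3g (0.0488). Over all 21 alternatives the adjusted p of Mpc1 ran from 0.023 to 0.675.

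The replicates bound how far a member can have moved. In each of the 7 comparisons the 95% interval of the fold change lay within 2-fold in either direction for 33 of 33 members, gene by gene and not jointly. Within 1.5-fold in either direction lay 28 members for cKO against WT with vehicle, 27 with DMαKG, 30 for DMαKG in WT, 24 for DMαKG in cKO, 19 for the interaction and 31 for each averaged comparison. The bounds were tightest for Idh3b, whose log2 interval for cKO against WT with vehicle was -0.25 to 0.15, and wide for Idh1 and Pcx, the members of low count.

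The genes of the enzymes that make α-ketoglutarate did not all move together across libraries. Idh3a and Idh3g followed the median of the other members (r = 0.815 and 0.743 over the 12 libraries). Idh3b and Idh2 followed it less closely (r = 0.504 and 0.439), and Idh1 did not (r = -0.034). Of the NAD-linked subunit genes Idh3b varied least, from 102 to 119 CPM. Idh3a ranged from 50.7 to 71.9 CPM (highest in cKO DMαKG 3, lowest in cKO vehicle 2) and Idh3g from 77.3 to 124 CPM (again highest in cKO DMαKG 3). By group, Idh3a was at 59.8, 54.6 and 58.6 CPM in WT vehicle, 50.7, 55.2 and 65.4 in cKO vehicle, 61.1, 60.3 and 57.6 in WT DMαKG and 65.0, 51.8 and 71.9 in cKO DMαKG. Idh3b was at 109, 109 and 119, then 106, 109 and 111, then 115, 112 and 104, then 111, 102 and 115 CPM in the same order. Idh3g was at 91.5, 77.3 and 86.0, then 79.4, 86.4 and 100.1, then 108, 104 and 82.9, then 102, 89.2 and 124 CPM. The groups overlapped for all 3 genes in every pairwise comparison. The mitochondrial and cytosolic NADP-linked genes had fold changes of opposite sign, and their TPM ratio within a library, Idh2 over Idh1, was 4.70, 4.24 and 6.48 in WT vehicle, 8.76, 7.33 and 6.78 in cKO vehicle, 6.33, 6.69 and 6.90 in WT DMαKG and 10.5, 13.2 and 10.7 in cKO DMαKG. With either drinking water every cKO library had a higher ratio than every WT library. Both genes had among the smallest p for genotype, with opposite signs, in these same libraries. This separation was therefore nearly given beforehand and adds no support. Ratios of other pairs were also computed, and the ratio is a description of genes already compared above, with no test.

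The genes that consume or regenerate α-ketoglutarate were as variable within groups as between them. Ogdh stood at 206, 205 and 202 CPM in WT vehicle, 227, 235 and 192 in cKO vehicle, 187, 210.1 and 218 in WT DMαKG and 199, 217 and 124 in cKO DMαKG. The last of these, in cKO DMαKG 3, was the lowest by far, and without it the log2 fold change for DMαKG in cKO was -0.06 in place of -0.28. Dlst stood at 119.6, 119 and 109.5, then 117, 125 and 116, then 114, 116 and 115, then 124, 114 and 102 CPM. Dld stood at 94.2, 87.9 and 92.8, then 83.3, 83.9 and 105, then 97.1, 91.3 and 89.5, then 93.5, 80.5 and 109.5 CPM. For both, the groups overlapped in every pairwise comparison. D2hgdh stood at 43.6, 48.4 and 33.4 CPM in WT vehicle, 39.9, 39.2 and 26.1 in cKO vehicle, 36.3, 31.2 and 41.1 in WT DMαKG and 36.6, 35.5 and 28.0 in cKO DMαKG. It was lowest in cKO vehicle 4 and cKO DMαKG 3, and the groups overlapped throughout. Slc25a11, the carrier that exchanges α-ketoglutarate for malate, ranged only from 50.5 to 61.9 CPM, with log2 fold changes between -0.03 and 0.11 in the 4 pairwise comparisons.

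For pyruvate entry, Mpc2 followed its partner Mpc1, at 17.3, 18.8 and 19.4 CPM in WT vehicle, 17.9, 20.2 and 21.2 in cKO vehicle, 21.2, 21.1 and 18.7 in WT DMαKG and 23.8, 19.9 and 27.4 in cKO DMαKG. Both were highest in cKO DMαKG 3, and their log2 CPM had r = 0.963 over the 12 libraries, which share depth and the length pattern described next. In that library the TPM ratio of Mpc1 to Mpc2 was 1.94, against 1.23 to 1.65 in the others. Pdha1, Pdhb, Pdhx and Pcx had log2 fold changes between -0.11 and 0.13 in the 4 pairwise comparisons.

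Library differences common to many members were as large as the group differences. Relative to its own mean over 12 libraries (log2 CPM), the median member deviated by -0.15 in cKO vehicle 2 and by 0.14 in cKO vehicle 4. In these 2 libraries of the same group, 8 and 29 of the 33 members lay above their own mean. Group means of this deviation were -0.06 ± 0.06 in WT vehicle, -0.00 ± 0.15 in cKO vehicle, 0.01 ± 0.05 in WT DMαKG and 0.03 ± 0.08 in cKO DMαKG (SD, n = 3), within the spread of the libraries. Over the 528 pairs of members the median correlation of log2 CPM was 0.23 and 340 were above 0. Correlations ran from -0.887 (Ogdh and Mdh1) to 0.963, and D2hgdh (r = -0.784) and Ogdh (r = -0.481) went most against the median of the other members. These are descriptions over the same 12 libraries.

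**Figure D4:**
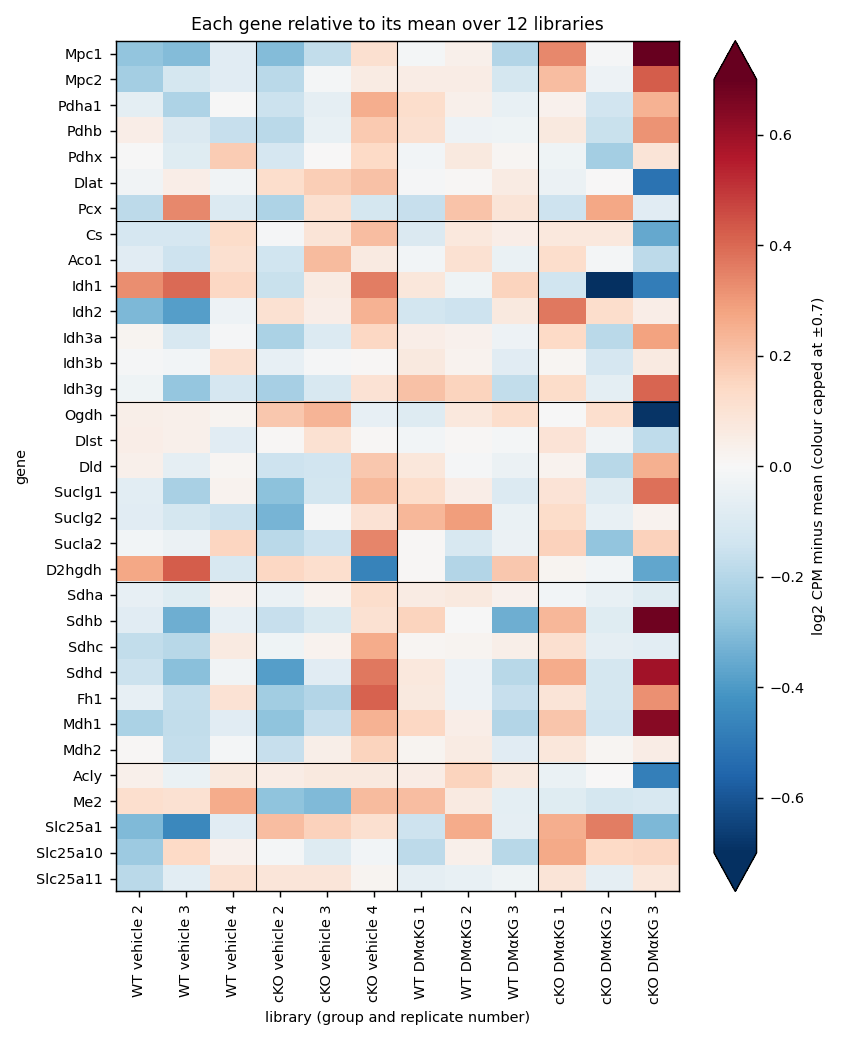
Log2 CPM of each gene relative to its mean over 12 libraries (colour, capped at ±0.7), with genes in pathway order as rows and libraries as columns. Red runs down most of cKO vehicle 4, where 29 of 33 members lie above their mean, and cKO DMαKG 3 mixes strong red (Mpc1, Sdhb, Mdh1) and strong blue (Ogdh, Dlat, Acly).

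Part of this followed transcript length, taken as the longest coding transcript in GENCODE. In cKO DMαKG 3 short transcripts tended to be high and long ones low. Mpc1 (961 bases) lay 0.87 above its mean on the log2 scale and Sdhb (1142 bases) 0.68 above. Ogdh (4127 bases) lay at -0.69, Dlat (4035 bases) at -0.52 and Acly (4426 bases) at -0.48. Not every member followed: Mdh1, of middle length (2122 bases), lay 0.64 above, Pdha1 (2848 bases) 0.24 above and Slc25a1 (1666 bases) at -0.32. Over the 33 members the Spearman correlation of deviation with length was -0.74 there, and it was -0.59 in cKO DMαKG 1 and 0.69 in WT DMαKG 3. Over the 12362 tested genes with a length the same coefficients were -0.23, -0.13 and 0.12. Vehicle libraries had such trends over the members too, at 0.3, 0.52 and 0.2 in WT and 0.39, 0.51 and -0.16 in cKO. The remaining DMαKG libraries stood at -0.24 and 0.28 (WT 1 and 2) and 0.22 (cKO 2). The trend thus differed between groups as well as within them, and its part in the group comparisons was not tested. With each library's length trend over all genes removed, the log2 fold change of Mpc1 for DMαKG in cKO was 0.45 (edgeR adjusted p = 0.153) and that of Idh1 was -0.52 (adjusted p = 0.215). In cKO DMαKG 3 the coefficient over all genes was smaller in size than over the members. A length pattern of the members may therefore remain in these values. Fitted with a Y-linked covariate the log2 fold changes of Mpc1 and Idh1 were 0.42 and -0.68. The part of RNA quality or library preparation in these patterns was not tested.

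**Figure D5:**
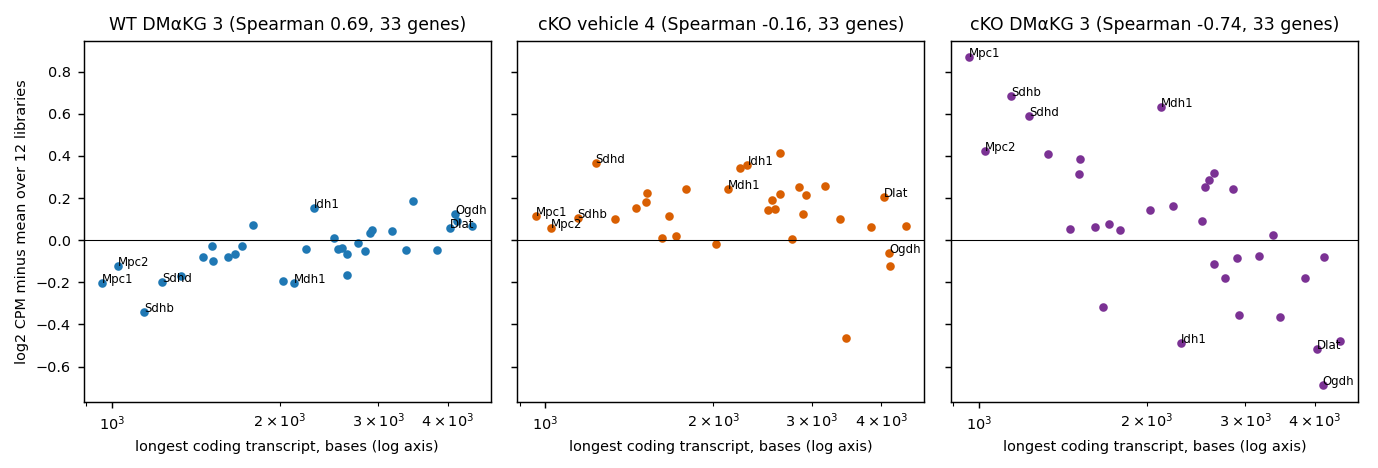
Deviation of each gene from its mean over 12 libraries (log2 CPM) against transcript length (log axis) in 3 libraries, 1 point per gene. The points slope upward in WT DMαKG 3 (Spearman 0.69), slope downward in cKO DMαKG 3 (-0.74), and show little slope in cKO vehicle 4 (-0.16).

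Genes around the cycle were read from a further list of 45: kinases and phosphatases of pyruvate dehydrogenase, assembly and lipoylation factors, further carriers and malic enzymes, transaminases, glutaminases and acetyl-CoA enzymes. Of these 38 were tested and 0 passed in any of the 7 comparisons (edgeR). Pdk4, Ogdhl, Me1, Acod1, Adhfe1, Slc25a21 and Slc13a3 were too low to test. Gls2, described below, reached a count of 10 in the cKO DMαKG group alone, so it passed the filter through the group where it was high and is left out of the counts that follow. At an unadjusted p below 0.05 the genotype comparison held 0 of the other 37 under vehicle and 6 under DMαKG (3 higher in cKO, 3 lower; 10.4% of all genes), and the DMαKG comparison held 3 in WT (2 higher, 1 lower; 2.73%) and 6 in cKO (4 higher, 2 lower; 17.3%). The DESeq2 Wald test passed Got1 for genotype with DMαKG and for DMαKG in cKO. It passed 0 of these genes in the interaction and in both averaged comparisons, which also involve the cKO DMαKG group. With quality weights, limma voom passed 3 of the 37 for genotype averaged (Acss1, Got2 and Pdk1) and 5 for DMαKG averaged. Got1, the cytosolic aspartate transaminase that interconverts α-ketoglutarate and glutamate, had the smallest p of the 37 in 5 comparisons. It stood at 42.1, 31.1 and 37.2 CPM in WT vehicle, 36.2, 45.1 and 43.1 in cKO vehicle, 43.1, 48.8 and 31.3 in WT DMαKG and 58.5, 64.9 and 95.1 in cKO DMαKG. The last group lay above all other libraries, with a log2 fold change of 0.81 for DMαKG in cKO (SE 0.20, edgeR adjusted p = 0.144), and 0.50 and 0.48 for the averaged genotype and DMαKG comparisons (adjusted p = 0.138 and 0.174).

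Gls2, a glutaminase that supplies glutamate, was scarce, and its values are a description with no test. Its level was 0.107 to 0.397 CPM in the 9 libraries of the other groups and 1.23, 1.04 and 0.763 CPM in cKO DMαKG. Got2, the mitochondrial partner of Got1, had the smallest p for cKO against WT with vehicle, at 95.2, 101 and 123 CPM against 121, 136 and 137 CPM, which overlapped (log2 fold change 0.31, edgeR adjusted p = 0.798). Sdhaf1, an assembly factor for the iron-sulphur subunit of succinate dehydrogenase, had it for DMαKG in WT, at 46.0, 48.4 and 33.6 CPM with vehicle and 71.1, 75.9 and 43.2 CPM with DMαKG, which overlapped (log2 fold change 0.57, edgeR adjusted p = 0.999).

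Some values carry an uncertainty of counting. Pdha1, Pcx, Idh3b, Ogdh, Dlst and Slc25a11 overlap another gene of the table in the annotation (Map3k15, Lrfn4, Nop56, Gm46270, Prox2 and Rnf167), and reads of those pairs may not be separable, because the sources used here do not say whether counting was stranded. For 7 members the deposited counts were not whole numbers in any library (Mpc1, Pdha1, Aco1, Idh2, Ogdh, Me2 and Slc25a11), and for 22 they were whole in all 12. The members lie on 17 chromosomes, Idh1 on chromosome 1 (65158616 to 65186479), Idh2 on chromosome 7 (80094845 to 80118608) and Mpc1 on chromosome 17 (8283787 to 8297667), and no member overlaps Tkt on chromosome 14.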

How the data were processed

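The authors deposited 1 table of 17955 genes, which holds FPKM, TPM and estimated counts of 12 libraries; groups and replicate numbers come from the labels. Tools named in the submitters' processing notes, without role or order, are DESeq2 1.16.1, featureCounts 1.5.0-p3 and HISAT2 2.0.5, with the build mm10. The deposited estimated counts were not normalized, and 36% of values were not whole, so they were rounded (the tests had been planned for whole counts). The deposited FPKM values are scaled by length and library size, per the file headers, and were used only as a check of rank. The deposited TPM values, scaled per library per the file headers, were used only to compare levels between genes.

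The count test was edgeR 4.0.16 under R 4.3.3: expression filter (12903 genes), TMM, robust quasi-likelihood fit with 1 mean per group on 12 libraries (8 residual degrees of freedom), Benjamini-Hochberg adjustment over all tested genes, threshold 0.05. The fit was tested on simulated data for cKO against WT with vehicle, with 50 genes changed at each size. It recovered 24% of genes changed 1.5-fold and 72% of those changed 2-fold, with 7 false calls among 153. A change in a member of 1.5-fold or less would thus often go uncalled. The biological coefficient of variation was 19.7%. CPM uses TMM-scaled sizes, and deviations are of log2 CPM with a prior count of 2. Intervals (95%) come from the fit. No pair of replicates agreed within sampling noise.

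The members and lists were chosen with earlier results of these data known. Named with values in each library are the genes around α-ketoglutarate, the 2 members with the smallest p in each comparison, the pairs Suclg2 and Sucla2 and Mpc1 and Mpc2, and, of the further list, the gene with the smallest p; other members named beside them (those whose groups did not overlap, for example) were chosen after their values were seen. Same-numbered libraries of the 2 genotypes did not deviate together in every pair, so replicate numbers were not used as a block in the main test. Alternatives were DESeq2 size factors, no filter, the DESeq2 1.42.0 Wald test, limma 3.58.1 voom with quality weights, only the groups compared, a replicate block and leaving out each library; 4 more were added after seeing the data (a Y-linked covariate, removal of the length trend, leaving out the 3 libraries at one end of the first principal component, and edgeR without the robust option).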

Additional observations from a re-analysis of the deposited data

How the results depend on the processing

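The count of members past the threshold was 0 in all 7 comparisons under every setting tried except limma voom with quality weights, which gave 3 for genotype averaged over treatment and 4 for DMαKG averaged over genotype, Idh2 and Mpc1 among them. The 14 log2 fold changes of the 2 members with the smallest p in each comparison kept their sign under every setting. These members were picked by small p in the same libraries, so a kept sign was nearly given beforehand and adds no support. Of all 231 member values, 115 had the other sign under at least 1 setting, all with a size of at most 0.19; Ogdh for genotype with DMαKG, for example, was 0.03 without cKO DMαKG replicate 3. Counts over all genes moved far more. In the order genotype with vehicle, genotype with DMαKG, DMαKG in WT, DMαKG in cKO, interaction, genotype averaged and DMαKG averaged, the main counts were 8, 24, 0, 0, 0, 130 and 1, those of the DESeq2 Wald test 100, 140, 2, 389, 1, 401 and 343, and those of limma voom 245, 237, 8, 450, 1, 1038 and 1546. With vehicle, genotype gave 3 with DESeq2 size factors, 0 on only the groups compared, and 3 each with the Y-linked covariate, without the robust option and without the 3 libraries at one end of the first principal component. With DMαKG the genotype count was 3 on only the groups compared, 4 with the covariate, 9 without the robust option and 1 without those 3 libraries. DMαKG in cKO gave 4 with no filter, 4 on only the groups compared and 15 without those 3 libraries, where the member median was 0.122 (main 0.03). Without them the averaged counts were 68 for genotype and 163 for DMαKG; the latter was 2 with no filter and 0 with the length trend removed. The causes were not tested.

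With the replicate number as a block, genotype gave 1 gene with vehicle, 0 with DMαKG and 12 averaged, and DMαKG averaged gave 0; it changed no call of a member. Correlations of the deviations of same-numbered libraries of the 2 genotypes were -0.12, 0.143 and 0.466 with vehicle and -0.25, -0.094 and -0.28 with DMαKG. Between the 2 treatments, for replicates 2 and 3, they were 0.234 and -0.217 in WT and 0.223 and 0.019 in cKO. The signs were mixed, and with 3 libraries per group such values cannot show whether libraries were paired.

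Leaving out 1 library at a time gave 1 to 5 genes for genotype with vehicle, 1 to 33 with DMαKG, 52 to 164 averaged, 0 to 137 for DMαKG in cKO and 0 to 619 for DMαKG averaged (the last 2 maxima without WT DMαKG replicate 3). The member median for genotype with vehicle ran from -0.0338 (without cKO vehicle replicate 4) to 0.1392. Depth limits Idh1, Pcx and Slc25a10 most, at 3 to 7 CPM.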
